A study of Mus musculus with 12 samples.

Results

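A set of 7 genes without a contractile or glycolytic role was examined across type I and type IIb myofibers of untrained and endurance-trained mice. The genes are Tspan8, Tpbgl, Sar1b, Prss23, Dkk3, Pla2g7 and the noncoding gene 2310065F04Rik. They are 7 of the 56162 features in the deposited tables and were picked because their levels were higher in type IIb than in type I libraries, so every comparison of the 2 fibre types below describes how they were chosen and carries no test. The 12 libraries came from male C57BL/6J mice, with an age of 8 weeks on all labels, in 4 groups of 3. The groups were type I fibres of untrained mice, type I fibres of trained mice, type IIb fibres of untrained mice and type IIb fibres of trained mice. Trained mice ran on a treadmill 5 days a week for 6 weeks, 60 min a day at 12 to 16 m/min, and their muscles were taken 3 days after training ended. Type I fibres came from the soleus, digested in collagenase (2 mg/ml) for 90 min, and type IIb fibres from the extensor digitorum longus, digested for 60 min, so that fibre type, muscle and digestion time cannot be told apart. Each fibre was divided, with one part typed by its myosin heavy chain protein and the other used for RNA. How many fibres or mice stand behind a library is not given in the sources used here.

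Fast glycolytic type IIb fibres carry the myosin heavy chain Myh4 and slow oxidative type I fibres carry Myh7, and most of what is known to separate them concerns contraction, calcium handling and fuel use. The genes described here lie outside those systems. Tspan8 encodes a tetraspanin, a 4-pass membrane protein that organises partners at the cell surface and on extracellular vesicles. Tpbgl encodes a leucine-rich repeat membrane protein related to trophoblast glycoprotein (Tpbg). Sar1b encodes a small GTPase that starts assembly of the COPII coat, which carries secretory cargo out of the endoplasmic reticulum. Prss23 encodes a secreted serine protease, Dkk3 a secreted glycoprotein of the Dickkopf family, and Pla2g7 the secreted phospholipase that breaks down platelet-activating factor and is best known from macrophages. 2310065F04Rik, also known as linc-MYH, is a long intergenic noncoding RNA in the cluster of fast myosin heavy chain genes.

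Library totals ran from 8026397 to 24995288 counts, and between 3636 and 14428 genes had at least 10 counts in a library. Myh4 made up at least 99.7% of the counts of 4 myosin heavy chain genes (Myh7, Myh2, Myh1 and Myh4) in each type IIb library, and Myh7 80.5% to 99.8% in the type I libraries, so the labelled fibre types matched their defining myosins. Markers of other cells were not evenly spread over the libraries. The summed level of 6 endothelial markers was 54.1 to 1582 CPM (counts brought to a common library size) in type I untrained, 0 to 221 CPM in type I trained and 0 to 224 CPM in type IIb trained libraries, and all 6 were at 0 counts in type IIb untrained libraries. Summed marker levels, here and below, are CPM of the unscaled library totals. Levels of single genes below are CPM scaled by TMM (trimmed mean of M values, an edgeR scaling of library size) unless another scale is named. FPKM are values that the authors divided by gene length and library total, which alone are compared between genes. Tests are edgeR's unless another tool is named.

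All 7 genes lie on 4 chromosomes of the mm10 genome build. Prss23, Tpbgl and Dkk3 are on the minus strand of chromosome 7, with 10.1 Mb between Prss23 and Tpbgl and 12.5 Mb between Tpbgl and Dkk3. Sar1b (ENSMUSG00000020386, 51763687 to 51791925, plus strand) and 2310065F04Rik (ENSMUSG00000087410, 67112461 to 67120080, minus strand) are on chromosome 11. Tspan8 (ENSMUSG00000034127) spans 115816832 to 115849893 on the plus strand of chromosome 10, and Pla2g7 (ENSMUSG00000023913) 43568098 to 43612201 on the plus strand of chromosome 17. Prss23 (ENSMUSG00000039405) spans 89507783 to 89527187, Tpbgl (ENSMUSG00000096606) 99624082 to 99627103 in a single exon, and Dkk3 (ENSMUSG00000030772) 112116017 to 112159057. The libraries do not keep strand, and other genes cover 38.65% of the exonic bases of Tpbgl (Gm10605, with 90 counts over the 12 libraries), 22.94% of those of Prss23 (its antisense gene Prss23os, with 2 counts) and 10.98% of those of Pla2g7. Reads in those shared bases cannot be assigned to a strand.

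Because these genes share a fibre type, the 300 bases around the start site (250 before, 50 after) are shown for 4 of them, taken from RefSeq (GRCm38.p6). Tspan8 was at 0 counts in all type I libraries, Sar1b had the highest level, Prss23 held the only match to a MEF2 site, and 2310065F04Rik lies in the fast myosin heavy chain locus. Capitals mark matches to an E-box (CANNTG, the core bound by myogenic factors), a MEF2 site (the motif of the muscle MEF2 factors) or the letters TATAAA, on either strand, and Tspan8 has none. Each sequence runs 5′ to 3′ on the gene's own strand.
Tspan8, chr10:115817034-115817333, plus strand: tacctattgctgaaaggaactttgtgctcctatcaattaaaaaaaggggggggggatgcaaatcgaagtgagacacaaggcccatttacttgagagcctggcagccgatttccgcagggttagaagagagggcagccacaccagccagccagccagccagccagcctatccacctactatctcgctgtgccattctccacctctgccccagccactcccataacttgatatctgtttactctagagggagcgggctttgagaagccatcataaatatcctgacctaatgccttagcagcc
Sar1b, chr11:51763413-51763712, plus strand: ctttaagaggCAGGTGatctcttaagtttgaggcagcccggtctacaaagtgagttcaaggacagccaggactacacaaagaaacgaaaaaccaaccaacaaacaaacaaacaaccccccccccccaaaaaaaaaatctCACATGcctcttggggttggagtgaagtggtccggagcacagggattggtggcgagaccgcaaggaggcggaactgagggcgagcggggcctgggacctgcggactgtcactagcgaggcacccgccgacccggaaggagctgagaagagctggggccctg
Prss23, chr7:89527138-89527437, minus strand: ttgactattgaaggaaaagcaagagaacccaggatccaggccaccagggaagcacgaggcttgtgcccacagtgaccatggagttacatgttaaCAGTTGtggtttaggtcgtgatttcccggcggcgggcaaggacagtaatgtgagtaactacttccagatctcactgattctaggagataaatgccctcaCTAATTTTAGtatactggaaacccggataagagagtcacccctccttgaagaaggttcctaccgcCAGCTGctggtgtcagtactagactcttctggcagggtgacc
2310065F04Rik, chr11:67120031-67120330, minus strand: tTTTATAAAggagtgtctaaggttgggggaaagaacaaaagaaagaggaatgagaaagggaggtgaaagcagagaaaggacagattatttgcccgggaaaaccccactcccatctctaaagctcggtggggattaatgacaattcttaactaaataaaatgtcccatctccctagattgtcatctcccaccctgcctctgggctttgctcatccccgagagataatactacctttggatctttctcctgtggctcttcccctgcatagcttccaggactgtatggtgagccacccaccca

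RefSeq promoters were matched for 6 of the 7 genes, without Dkk3. An E-box was found in 4 of the 6 (Tpbgl, Sar1b, Prss23 and Pla2g7), against 72.3% of all 32851 promoters in the table. The letters GGAAA, the core of NFAT sites, were found in 5 of the 6, against 61.3% of all promoters. The MEF2 site of Prss23 begins at position -57, and 1.9% of all promoters hold one. In 2310065F04Rik, TATAAA and its reverse complement overlap at positions -247 and -249 from the start site, and 13.6% of all promoters hold these letters. Neither TCAGGTT, the start of a MEF3 site, nor TGCTGAC, one side of a Maf site, was in any of the 6, against 4.1% and 4.7% of all promoters. These matches describe letters within 300 bases only.

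In type IIb fibres the 7 genes covered a wide range of levels. Mean FPKM over the 6 type IIb libraries was 1768 ± 631 (SD, n = 6) for Sar1b, 243 ± 125 for Tspan8, 179 ± 69.1 for 2310065F04Rik, 100.5 ± 57.8 for Prss23, 31.7 ± 10.2 for Pla2g7, 26.3 ± 23.6 for Dkk3 and 16.1 ± 24.7 for Tpbgl. Sar1b stood above 99.5% of the 11747 tested genes by this mean, and Tpbgl above 75.9%. Neighbours in this order did not overlap in 2 places: the lowest Sar1b library (1133 FPKM) was above the highest Tspan8 library (465 FPKM), and the lowest Prss23 library (51.9 FPKM) was above the highest Pla2g7 library (45.6 FPKM). Tspan8, 2310065F04Rik and Prss23 overlapped as neighbours, and so did Pla2g7, Dkk3 and Tpbgl. The FPKM of Prss23 and Pla2g7 rest on deposited lengths of 1024 and 1100 bases, where the merged exons of GENCODE M21 give 3767 and 2905. With merged exon lengths their means would be 27.3 and 12.0 FPKM, and Pla2g7 would rank last instead of Tpbgl.

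**Figure D1:**
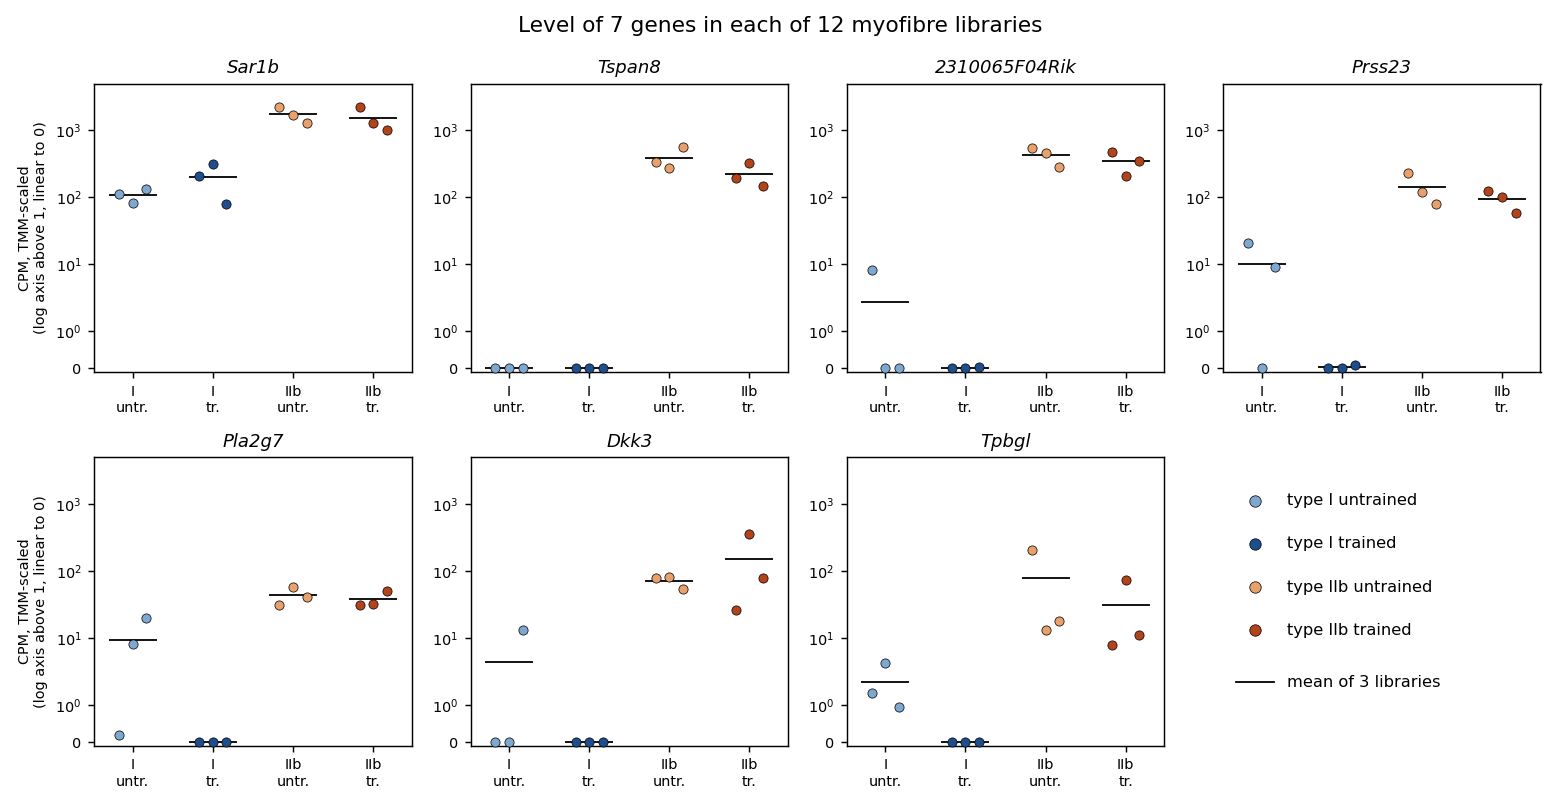
Level of each of the 7 genes in each of the 12 libraries, as TMM-scaled CPM on a vertical axis that is logarithmic above 1 and linear down to 0, grouped by fibre type and training. Points are libraries and lines are means of 3. Type IIb points lie above all type I points in each panel, Sar1b also has clear levels in type I, and Tspan8 lies at 0 in all 6 type I libraries.

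The label of genes restricted to type IIb held in the strict sense for Tspan8 alone. In CPM, each of the 7 genes had all 6 type IIb libraries above all 6 type I libraries, a separation that 1.06% of the 11747 tested genes showed and for which these genes had been picked. On the FPKM scale Pla2g7 overlapped: type I untrained library 3 had 27.2 FPKM, above 3 of the type IIb libraries. Sar1b had counts in all 6 type I libraries, Tpbgl, Prss23 and Pla2g7 in 3 each, 2310065F04Rik in 2, Dkk3 in 1 and Tspan8 in 0. The margin between the lowest type IIb and the highest type I library was 26.1-fold for 2310065F04Rik, 3.25-fold for Sar1b, 2.82-fold for Prss23, 1.94-fold for Dkk3, 1.86-fold for Tpbgl and 1.55-fold for Pla2g7. The last of these, 1.55-fold, is the narrowest, and no margin can be given for Tspan8.

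Of the 2 surface proteins, Tspan8 was the more abundant and the more even. Its level was 341, 269.9 and 557 CPM in type IIb untrained libraries 1, 2 and 3, and 191, 320.3 and 149 CPM in type IIb trained libraries 1, 2 and 3. The 6 type I libraries had 0 counts against 12535 in the untrained and 5300 in the trained type IIb group. Trained and untrained type IIb libraries overlapped, trained library 2 being above untrained library 2. Measured against a floor of 3 counts over the group, Tspan8 was at least 8781-fold higher in type IIb among untrained and at least 2543-fold higher among trained libraries.

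Tpbgl varied most. It had 208, 13.2 and 17.98 CPM in type IIb untrained libraries 1, 2 and 3 and 7.88, 74.3 and 10.9 CPM in the trained ones, so that a single library in each group (untrained 1, trained 2) was far above the others. The highest type IIb library was 26.3 times the lowest, the widest ratio among the 7 genes. In type I, untrained libraries 1, 2 and 3 had 25, 59 and 36 counts (1.499, 4.24 and 0.956 CPM), and the 3 trained libraries had 0 counts. The pooled type IIb to type I ratio was 39.8 among untrained libraries and at least 297 among trained ones.

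Sar1b was high in type IIb fibres and present at a lower level in every type I library. It had 2201, 1719 and 1275 CPM in type IIb untrained libraries 1, 2 and 3, and 2261, 1306 and 1005 CPM in trained ones. In type I the levels were 110.2, 81.3 and 131 CPM untrained and 205, 309 and 80.6 CPM trained. Within each fibre type trained and untrained libraries overlapped. The pooled ratio of type IIb to type I was 14.7 among untrained and 9.13 among trained libraries, and the spread within type IIb was narrow, with the highest library 2.25 times the lowest.

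Among the 3 secreted proteins, Prss23 had 229, 119.8 and 80.0 CPM in type IIb untrained libraries 1, 2 and 3 and 126, 102 and 58.8 CPM in trained ones. In type I it had 347, 0 and 341 counts (20.8, 0 and 9.05 CPM) in untrained libraries 1, 2 and 3, and 0, 0 and 2 counts in trained ones. Untrained type I library 2 was therefore like the trained ones, and the other 2 untrained libraries were not. The pooled type IIb to type I ratio was 13.6 among untrained libraries and 1692 among trained ones, where the 2 type I counts leave a counting interval of 468 to 13980.

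Dkk3 had 78.3, 81.3 and 53.7 CPM in type IIb untrained libraries 1, 2 and 3 and 25.8, 358 and 78.5 CPM in trained ones. Trained library 2 was above and trained library 1 below all untrained libraries, and the highest type IIb library was 13.8 times the lowest. In type I, all 503 counts came from untrained library 3 (13.4 CPM), and the other 5 libraries had 0 counts. The pooled ratio of type IIb to type I was 9.67 among untrained and at least 1560 among trained libraries.

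Pla2g7 was the most even of the 7 in type IIb, with 31.4, 58.1 and 40.6 CPM in untrained libraries 1, 2 and 3 and 30.9, 32.2 and 50.3 CPM in trained ones. Type I untrained libraries had 3, 114 and 749 counts (0.180, 8.19 and 19.9 CPM), and the 3 trained libraries had 0 counts. The pooled type IIb to type I ratio was 3.52 among untrained libraries, the lowest of the 7, and at least 534 among trained ones. Macrophages also make Pla2g7, so 6 macrophage markers were read beside it. Their summed level was 0 to 1.31 CPM in the type IIb trained libraries, with Csf1r and C1qa at 0 counts, where Pla2g7 had 22.1 to 45.6 CPM of unscaled totals. In type IIb untrained libraries the sum was 12.4 to 114 CPM, with Adgre1, Csf1r, C1qa and C1qb at 0 counts, so that it came from Cd68 and Mrc1. In type I the sum was 14.2, 0.533 and 32.6 CPM in untrained libraries 1, 2 and 3. It was 0.310, 0 and 35.8 CPM in the trained ones, where Pla2g7 had 0 counts. Whether macrophage RNA added to the Pla2g7 counts was not tested.

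2310065F04Rik had 552, 461 and 288 CPM in type IIb untrained libraries 1, 2 and 3 and 477, 211 and 347 CPM in trained ones. Type I untrained library 1 had 135 counts (8.10 CPM), the other 2 untrained libraries had 0, and the trained libraries had 0, 0 and 1 count. Its pooled type IIb to type I ratio was 217 among untrained libraries and 13901 among trained ones, where the single type I count leaves an interval of 2494 to 549106. The gene lies between Myh3, 10.2 kb away, and Myh2, 50.9 kb away, and Myh4 is 117.9 kb away. All 6 Myh genes of the locus are on the plus strand, opposite to 2310065F04Rik. Of these, Myh4 (6886 ± 3250 FPKM, SD, n = 6) was the only one with a high level in type IIb fibres, where Myh1 had 6.85 ± 8.04 FPKM, Myh2 and Myh13 had 1 count each over 6 libraries, Myh8 had 5 and Myh3 had 0. The noncoding gene (179 FPKM) was thus above Myh1, which is nearer to Myh4, and below Myh4.

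**Figure D2:**
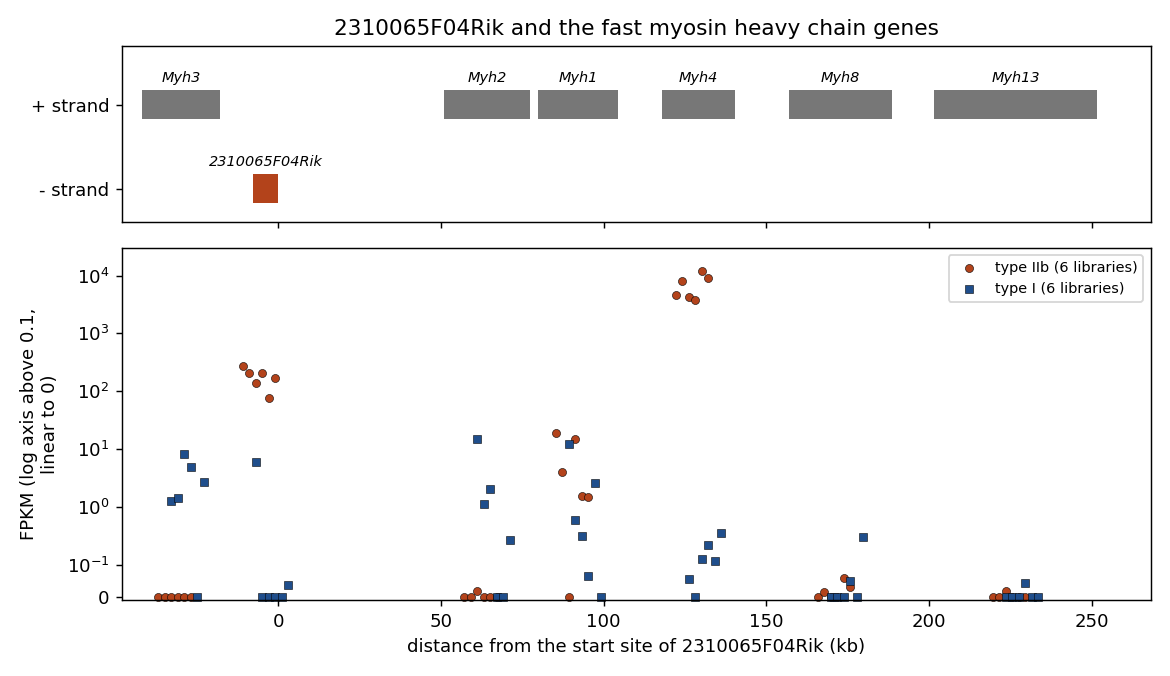
The fast myosin heavy chain locus drawn to scale, in kb from the start site of 2310065F04Rik, above the FPKM of each gene in each of the 6 type IIb (circles) and 6 type I libraries (squares), on an axis that is logarithmic above 0.1 and linear down to 0. Myh4 and 2310065F04Rik stand above the other genes in type IIb libraries.

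Whether these genes responded to training was tested with edgeR's quasi-likelihood test over all 11747 genes. The genes had been picked for levels between fibre types over all 12 libraries, low type I levels included, and not for a difference between trained and untrained libraries. In type IIb fibres 0 of the 7 genes changed at an adjusted p under 0.05, and 0 at an unadjusted p under 0.05. Of all tested genes 0% were called, and 8.21% had an unadjusted p under 0.05. DESeq2 and limma-voom, run on the same counts as alternatives, also called 0 of the 7, beside 364 and 1 of all genes. The 1 gene called by limma-voom was Myh4. Between fibre types limma-voom did not call Myh4, at log2 differences of 17.9 untrained and 16.3 trained (adjusted p = 0.993 and 0.999 by limma-voom). A gene left uncalled by limma-voom, here and below, is therefore weak evidence of no difference. Trained minus untrained log2 differences were -0.82 ± 0.75 (SE) for Tspan8, -1.36 ± 1.79 for Tpbgl, -0.18 ± 0.49 for Sar1b, -0.58 ± 1.43 for Prss23, 1.11 ± 1.80 for Dkk3, -0.20 ± 1.81 for Pla2g7 and -0.33 ± 1.36 for 2310065F04Rik, with 3 libraries a group. Each SE is the size of the difference divided by the square root of edgeR's F statistic. The fit covers all 12 libraries, so the spread of the type I libraries enters these errors and p-values. With only the type IIb groups fitted, 0 of the 7 genes were called as well. Adjusted p-values by edgeR ran from 0.909 (Tspan8) to 1, and the trained and untrained libraries overlapped for each gene, where 2.82% of all tested genes had all trained libraries above and 1.92% all below the untrained ones. Differences were below 0 for 6 of the 7, with a median of -0.33 against 0.36 over all tested genes, of which 39.0% were below 0.

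For both genes with a library far above the rest, that library set the sign. For Tpbgl the difference became 0.99 without type IIb untrained library 1, and for Dkk3 it became -0.45 without type IIb trained library 2. Sar1b and Pla2g7, whose differences were near 0, also crossed it: Sar1b came to 0.02 without type IIb untrained library 1 and 0.04 without type IIb trained library 3, and Pla2g7 to 0.07 without type IIb untrained library 2. Tspan8, Prss23 and 2310065F04Rik stayed below 0 when any 1 library was left out, between -1.199 and -0.07. By the pooled counts, untrained over trained ratios were 1.97 for Tspan8, 3.06 for Tpbgl, 1.58 for Prss23, 1.198 for Sar1b, 1.203 for 2310065F04Rik and 1.09 for Pla2g7, and Dkk3 was 1.69 times higher in trained libraries.

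**Figure D3:**
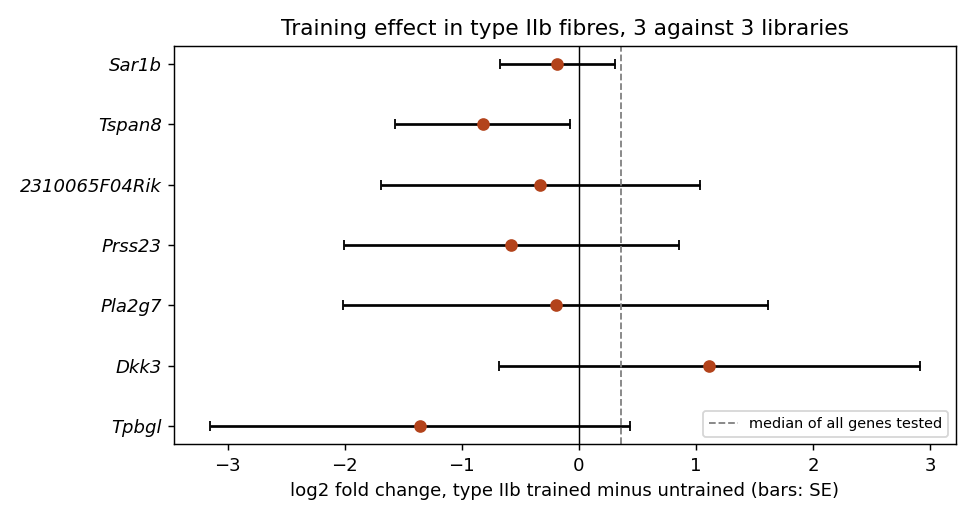
Trained minus untrained log2 difference of each of the 7 genes in type IIb fibres, 3 libraries a group, with the median of all tested genes as a dashed line. Bars are 1 standard error, derived from the F statistic of edgeR's fit of all 12 libraries, type I included. The 7 differences run from -1.36 (Tpbgl) to 1.11 (Dkk3).

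In type I fibres, the genes other than Sar1b were found almost only in untrained libraries. Together these 6 had 2312 counts in type I untrained and 3 counts in type I trained libraries. The libraries also differed in complexity. Type I untrained libraries 1, 2 and 3 had 11703, 9711 and 14428 genes with at least 10 counts, and trained ones 6082, 6517 and 11852. Untrained library 3 had the highest total of all, 24995288 counts. Of all tested genes 57.5% had a difference below 0 for training in type I. The part of depth and complexity was not tested. Tspan8, at 0 counts in all type I libraries, has no training value here. Prss23, Dkk3, Pla2g7 and 2310065F04Rik had at least 10 counts in 1 or 2 type I libraries only and passed the filter through type IIb, so their number is no support for a shared response. The edgeR test called none of the genes with counts (adjusted p = 1 for each), as it called 0% of all genes. Unadjusted p-values were 0.00578 for Tpbgl, 0.00105 for Prss23, 0.00482 for Dkk3, 0.00203 for Pla2g7 and 0.00404 for 2310065F04Rik. Of all 11747 tested genes 345 had an unadjusted p under 0.05 by edgeR. DESeq2 called 3 of them lower in trained libraries (adjusted p = 0.00516 for Prss23, 1.89e-18 for Dkk3 and 0.000119 for Pla2g7), beside 59 of all 11747 genes, 58 of these lower. All type I counts of Dkk3 came from untrained library 3. With limma-voom 0 of them were called, beside 4 of all genes. By pooled counts, untrained over trained ratios were at least 22.8 for Tpbgl, at least 95.7 for Dkk3, at least 165 for Pla2g7, 196 for Prss23 (counting interval 54.2 to 1625) and 77.1 for 2310065F04Rik (13.6 to 3067). Tpbgl and Pla2g7 had counts in each untrained and no trained library, while for Prss23, Dkk3 and 2310065F04Rik trained and untrained libraries overlapped at or near 0. How many of all tested genes were separated in this way in type I was not counted, so no result about these genes is drawn from it. Sar1b had a pooled trained over untrained ratio of 1.35 and a difference of 0.88 ± 0.49 (SE; unadjusted p = 0.0906 by edgeR).

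The counts in untrained type I fibres sat in different libraries for different genes, and summed markers of other cells and of fast fibres also differed between these libraries. Library 3, which held all Dkk3 and most Pla2g7 counts, had summed levels of 5625 CPM for 6 fibroblast markers and 2227 CPM for 4 tendon markers, against 160 and 0.767 CPM in library 1 and 19.1 and 1.90 CPM in library 2. Library 1, which held all 2310065F04Rik counts, had 4389 CPM of 6 type IIb fibre markers, against 695 and 637 CPM in libraries 2 and 3 and 305 to 762 CPM in the trained type I libraries. Myh4, a member of this list, had 4 counts in library 1, against 0 and 19 in libraries 2 and 3. The sum of Myh2 and Myh1, markers of type IIa and IIx fibres, was 127 CPM in library 1, against 7.84 and 10.6 CPM in libraries 2 and 3. Library 1 also had the highest endothelial sum, 1582 CPM, against 54.1 and 611 CPM. No marker of the fibroblast, tendon or endothelial lists was at 0 over the 3 untrained libraries, whereas Tnmd and Mkx of the tendon list were at 0 counts over the trained ones. Without the libraries with the highest endothelial sums (type I untrained 1 and 3 and type IIb trained 3), type I untrained library 2 alone is left in its group, and Prss23, Dkk3 and 2310065F04Rik have 0 counts there. Tpbgl and Pla2g7 kept 59 and 114 counts in type I untrained library 2, where the endothelial and fibroblast sums were the lowest of the 3. Whether a library held RNA of other cells or the fibres themselves carried more of these transcripts cannot be told apart, and the part of the markers was not tested beyond this.

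The interaction, the difference between the training effects of type IIb and type I fibres, was called for 0 of the 7 genes by edgeR, against 0% of all tested genes. The lowest adjusted p was 0.418, and the low type I counts described above stand behind these values too. DESeq2 called Dkk3 (adjusted p = 5.16e-12) and Pla2g7 (adjusted p = 0.00369), beside 390 of all 11747 genes, while limma-voom called 0 of the 7 and 0 of all genes. The Dkk3 value rested on 1 library: by edgeR it was 10.07, and 1.08 (adjusted p = 1) without type I untrained library 3, which held all type I counts of Dkk3.

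Each gene was then set beside its relatives, from lists of the pathway or family. Over the untrained libraries 54 of the 11747 genes (0.46%) differed between type IIb and type I by edgeR, 24 higher (0.204%) and 30 lower (0.255%) in type IIb, and over the trained libraries 63 (0.536%), 35 higher (0.298%) and 28 lower (0.238%). By edgeR, 2053 genes untrained and 943 trained had an unadjusted p under 0.05. DESeq2 called 68 genes higher and 963 lower in type IIb untrained, and 138 and 208 trained. By limma-voom these were 238 and 1868 untrained, and 50 and 126 trained. With these 2 tools lower calls thus outnumbered higher ones over all genes, and the list counts below are to be read beside that. Of 30 other tetraspanins, 17 could be tested and 0 were called in either state (3 untrained and 1 trained at an unadjusted p under 0.05), and 15 of the 17 lay below 0 among untrained libraries (median log2 difference -2.25, against -0.85 over all genes). Among trained libraries 9 of the 17 lay below 0 (median -0.25, against -0.21 over all genes). Tspan3 had the highest type IIb level of them, 113 ± 46.6 FPKM (SD, n = 6), lower than the 243 FPKM of Tspan8. DESeq2 called 2 and limma-voom 3 of the 17 among untrained libraries, all lower in type IIb, and neither called one higher.

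Of 21 genes of the COPII coat and export from the endoplasmic reticulum other than Sar1b, 20 could be tested and 0 were called (1 untrained and 0 trained at an unadjusted p under 0.05), with 10 above and 10 below 0 among untrained and 6 above and 14 below among trained libraries. DESeq2 called 1 and limma-voom 3 lower in type IIb among untrained libraries, and neither called one higher. Sar1a, the paralog that encodes the other Sar1 GTPase, had 115 ± 88.9 FPKM in type IIb and 259 ± 86.4 FPKM in type I libraries (SD, n = 6 each; adjusted p = 0.958 untrained and 0.996 trained by edgeR), a difference that did not pass the test. Sar1b made up 84.9% to 100% of the summed FPKM of both genes in type IIb libraries (median 91.5%), and 29.2% to 70.1% in type I libraries (median 44.2%). It was the larger of the pair in 6 of 6 type IIb libraries and in 2 of 6 type I libraries. These shares rest on deposited lengths, for Sar1b 789 bases where the merged exons give 1255, and the length of Sar1a was not checked. Which gene of the pair is larger in type I libraries may therefore depend on the lengths used.

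Relatives of Dkk3 gave the 1 called gene that pointed the other way. Of 18 secreted Wnt antagonists and Dickkopf receptors 3 could be tested, and Dkk2, a secreted Dickkopf protein that binds Lrp5 and Lrp6, was lower in type IIb fibres in both states (adjusted p = 0.025 untrained and 0.0302 trained by edgeR). Dkk2 had 0 counts in all 6 type IIb libraries. In type I it had 2428, 1623 and 1204 counts in untrained libraries 1, 2 and 3 and 164, 834 and 1990 counts in trained ones, so the groups did not overlap. Such a separation, with every type I library above every type IIb library, was shown by 2.5% of all tested genes. The type I level was at least 834 times the type IIb level among untrained and at least 692 times among trained libraries. The call among untrained libraries was lost without any of the type I untrained libraries 1, 2 and 3 or type IIb untrained libraries 2 and 3 (adjusted p = 0.0644 to 0.141), and among trained libraries without type I trained libraries 2 and 3 or any of the type IIb trained libraries 1, 2 and 3 (0.0711 to 0.128), while the 0 counts in type IIb hold for each library. Among trained libraries it was also lost with only the groups compared (0.0761) and on log2(FPKM + 1) (0.0706). In all, it was kept in 9 of 16 alternatives among untrained and in 7 of 16 among trained libraries. Without the libraries highest in endothelial markers the adjusted p-values were 0.223, with type I untrained library 2 alone in its group and assumed to vary like the others, and 0.508.

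**Figure D4:**
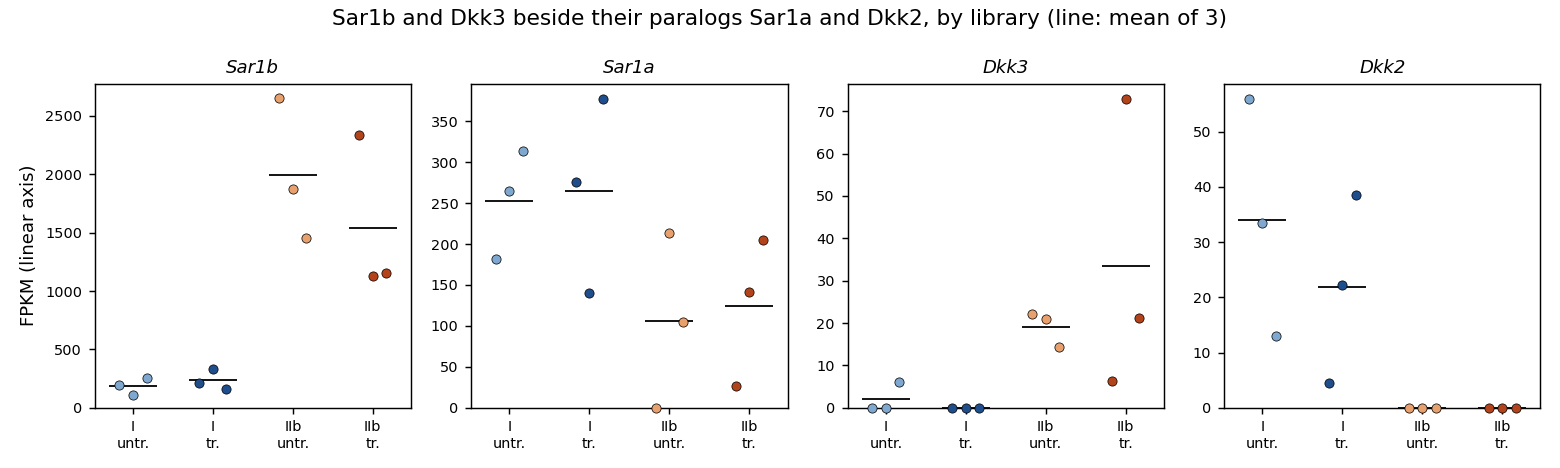
FPKM of Sar1b and Sar1a and of Dkk3 and Dkk2 in each library, by group, with the mean of 3 as a line and a linear axis of its own in each panel. Sar1b is above Sar1a in all type IIb libraries, and Dkk2 lies at 0 in all 6 type IIb libraries, where Dkk3 has its higher levels.

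For Tpbgl, Prss23 and Pla2g7 edgeR called no relative. Tpbg, the relative of Tpbgl, had 0 counts in type IIb libraries and 737 counts in type I, all in untrained library 3. Of 8 secreted or cell-surface serine proteases 4 could be tested and 0 were called (2 in each state at an unadjusted p under 0.05). DESeq2 called 2 and limma-voom 1 lower in type IIb among untrained libraries. Prss35, the relative of Prss23, was nearly absent from both fibre types and did not pass the filter. It had 0 counts in type IIb libraries and 34 in type I, all in untrained library 3. Of 7 enzymes and receptors of platelet-activating factor 4 could be tested and 0 were called (0 at an unadjusted p under 0.05, 0 by DESeq2, and 2 lower in untrained type IIb by limma-voom), with Pafah1b1 highest in type IIb fibres at 14.3 ± 10.3 FPKM, against 31.7 FPKM for Pla2g7 on the deposited length and 12.0 on its merged exon length. Pafah2, an intracellular enzyme with the activity of Pla2g7, had a pooled type IIb to type I ratio of 0.434 among untrained libraries (39 and 189 counts) and 6.72 among trained ones (42 and 9 counts).

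Of 12 regulators linked to fibre type all could be tested, and edgeR called 0 among untrained libraries (4 at an unadjusted p under 0.05) and 1 among trained ones. DESeq2 called 1 higher (Maf) and 1 lower (Prox1) in type IIb among untrained and 1 higher (Maf) among trained libraries. Among untrained libraries limma-voom called 4 higher (Maf, Mafa, Tbx15 and Sox6) and 1 lower (Prox1), and among trained ones none. The gene called by edgeR was Tbx15, a T-box factor of glycolytic fibres, with 237 ± 63.1 FPKM in type IIb and 69.0 ± 43.1 FPKM in type I libraries (log2 difference 3.08 in trained libraries, adjusted p = 0.0479 by edgeR). The ratio was 5.97 in trained and 4.45 in untrained libraries (adjusted p = 0.23), the difference between the states was not called, and the call was kept in only 2 of 16 alternatives. Maf, a large Maf factor of type IIb fibres named here after its values were seen, had 88.4 ± 33.9 against 4.81 ± 3.28 FPKM, a ratio of 29.9 untrained and 24.8 trained, without passing the test (adjusted p = 0.114 and 0.152 by edgeR), though DESeq2 called it higher in both states.

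Across all 12 libraries, each of the 7 genes was most alike in level to genes with a higher mean in type IIb libraries. Likeness was Pearson's r of log2(CPM + 1), ranked over 11740 other genes and given as a description, since all libraries share the fibre split. Tspan8 was most like Myh4 (r = 0.99), Mstn, which encodes myostatin (0.98), and Mylpf, the fast regulatory light chain (0.98). 2310065F04Rik was most like Pvalb, the calcium buffer parvalbumin (0.99), Mylpf (0.98) and Tpm1, a tropomyosin (0.97). Sar1b was most like Mylf-ps, Myl1, the fast essential light chain, and Gm3222 (0.96 to 0.97). Prss23 was most like Slc37a4, the glucose-6-phosphate transporter, Pvalb and Mylpf (0.93 to 0.95), and Dkk3 most like Smox, spermine oxidase, Cib2 and Slc37a4 (0.92 to 0.94). Tpbgl was nearest to Calm3, a calmodulin gene, Slc16a3, a lactate transporter, and Pgam2, a glycolytic enzyme of muscle (0.89 to 0.93), and Pla2g7 to Sh3kbp1, Tmem63a and Msrb3 (0.88 to 0.89).

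Within the type IIb libraries these likenesses differed in sign, with 8 of the 21 r values below 0 and 13 above. Over the 6 type IIb libraries r was -0.24 for Tspan8 with Myh4 and -0.66 for 2310065F04Rik with Pvalb, and it was 0.88 for Tpbgl with Calm3 and for Dkk3 with Slc37a4. The same held among the 7 genes themselves: over 12 libraries r of their 21 pairs ran from 0.74 to 0.97 (median 0.85), and over the 6 type IIb libraries from -0.67 (Dkk3 with 2310065F04Rik) to 0.88 (Sar1b with Prss23), with a median of 0.05 and 10 of 21 below 0. No library was high or low throughout. Type IIb untrained library 1, with the fewest genes at 10 counts or more (3636), was highest for Tpbgl, Prss23 and 2310065F04Rik. Type IIb trained library 3 (10932 genes) was lowest for Tspan8, Sar1b and Prss23, and trained library 1 (4291 genes) for Tpbgl, Dkk3 and Pla2g7. The part of library complexity in these differences was not tested.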

How the data were processed

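Complementary DNA was made from lysed fibre pieces with the SMART-Seq HT kit and sequenced as Nextera XT libraries, which do not mark strand, per the labels' protocols. The submitters' processing notes name TopHat2 and the mm10 build. The sources used here do not give the counting program or the annotation. The authors deposited whole-number read counts per gene and FPKM values, and of the nonzero FPKM values 94.5% lay within 0.1% of the count divided by length and library total. The 761 features without an Ensembl identifier (0.109% to 0.331% of counts) were kept and went through the same filter as the other features.

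Counts were tested with edgeR 4.0.16 in R 4.3.3 (quasi-likelihood, robust, TMM, minimum count 10 and total 15) over 11747 genes and all 12 libraries, with Benjamini-Hochberg adjustment at 0.05. The members and gene lists were chosen with earlier results of these data known. All 7 passed the filter. Named relatives and list genes were those called, the highest in type IIb, the paralogs and the 3 most alike by r. No label ties a library to an animal; p-values therefore reflect spread among libraries that may be technical. Folds use pooled counts over TMM-scaled totals, with 3 counts over a group at 0, and 95% intervals cover counting error only. Near copies were searched with BLAST 2.17.0 (at least 90% identity over 200 bases), which found only the overlapping genes Prss23os and Gm10605. Promoters came from RefSeq tables. The code was tested on simulated data. Alternatives were RLE scaling, no filter, DESeq2 1.42.0, limma 3.58.1 (voom, log2 FPKM), a replicate block, only the groups compared, and libraries left out.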

Additional observations from a re-analysis of the deposited data

How the results depend on the processing

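Training calls over all genes were 0 in each fibre type and in their interaction with edgeR. In type IIb they became 9 without the filter, 364 with DESeq2, and 1 with voom, with only the groups compared or without the libraries with the fewest genes (type IIb untrained 1 and trained 1), and 2 without those highest in endothelial markers. In type I they became 7, 59 and 4 with no filter, DESeq2 and voom, of which 1, 3 and 0 were among the 7 genes. The interaction gave 26, 390 and 1 with no filter, with DESeq2 and without those 2 libraries of fewest genes, and DESeq2 called 2 of the 7. Leaving out 1 library at a time gave 0 to 2 (type IIb), 0 to 1 (type I) and 0 to 2 (interaction), with 0 of the 7 genes. The cause of these moves was not tested.

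Differences between fibre types numbered 54 (24 higher in type IIb, 30 lower) untrained and 63 (35 and 28) trained. Untrained they became 123 without the filter (30 and 93), 1031 with DESeq2 (68 and 963), 2106 with voom (238 and 1868), 329 and 307 with log2(FPKM + 1) and log2(FPKM + 0.1), 82 with only the groups compared and 25 without the libraries highest in endothelial markers, and 22 to 45 without 1 library. Trained they became 346 with DESeq2 (138 and 208), 176 with voom (50 and 126), 126 and 115 on the FPKM scales, and 29 to 69 without 1 library. With the replicate number as a block, the trained count was 41, and Dkk2 was no longer called (adjusted p = 0.106 untrained and 0.139 trained). A pairing of samples by these numbers was neither given by the labels nor clear from the values. The 12 same-numbered pairs correlated at -0.0445 to 0.177, with 3 over 0.1 and the best match in 5 of 12, which cannot exclude a pairing. Scaling by RLE moved the median log2 difference of all genes from -0.85 to -1.17 (untrained fibre types) and from -0.28 to -0.57 (training in type I), and voom moved the former to -2.04; RLE did so without reversing any of the 7 genes.

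Among the 7 genes the difference for training in type IIb changed sign for Tpbgl with voom (0.36), without type IIb untrained library 1 (0.99) and without the libraries with the fewest genes (1.43), for Sar1b without type IIb untrained 1 (0.0207) or trained 3 (0.0372), for Pla2g7 without type IIb untrained 2 (0.0691) and for Dkk3 without type IIb trained 2 (-0.447). Leaving out 1 library at a time, the ranges were -3.09 to 0.99 for Tpbgl, -0.58 to 0.0372 for Sar1b, -0.46 to 0.0691 for Pla2g7 and -0.447 to 1.61 for Dkk3. For training in type I, 2310065F04Rik changed sign without type I untrained 1 (1.76; range without 1 library -8.17 to 1.76) and without the libraries highest in endothelial markers (1.52), as did Prss23 (2.14) in the latter. The untrained type I libraries left there (2 and 3, or 2 alone) have 0 counts of the gene, so that any trained count gives a value above 0, and a lone library is assumed to vary like the others. The interaction changed sign for Tpbgl on log2(FPKM + 1) (-0.14), for 2310065F04Rik in the same pair of settings (-2.09 and -1.93, up to 7.84 without 1 other library) and for Prss23 without the libraries highest in endothelial markers (-2.56). The higher level in type IIb kept its direction in each alternative computed for the 7 genes, with 88 values within the spread of the libraries and 10 beyond it. Depth limits the type I values: a library's 3-count floor lies below 0.4 CPM, but ratios to groups with 0 to 2 counts are bounds or wide intervals.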
